A study of Homo sapiens with 12 samples.

Results

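A set of 35 genes of the lysosome and of autophagy was followed in MV3 melanoma cells. The members were fixed by symbol, and 35 of 35 matched a gene symbol in the deposited expression table and its identifier among the 58288 gene identifiers of the deposited count table. They comprise 18 lysosomal genes (3 of membrane and channel proteins, 3 proton pump subunits, 6 cathepsins and 6 other hydrolases or lipid-handling proteins), 15 autophagy genes (3 of initiation, 5 of conjugation, 3 ATG8-type genes and 4 receptors) and the transcription factor genes TFEB and TFE3.

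The cells are an established human line that was derived from a melanoma metastasis in a lymph node, and this 1 line served in all groups. Grown with 10% serum, they spent 3 h in RPMI medium with 1% serum and then 24 h in 1 of 4 media before RNA was taken, with 3 samples for each. The media were RPMI conditioned by THP-1 macrophages, made from a human monocyte line, that had been differentiated with PMA and then polarized with LPS and interferon-gamma (M1), the same with IL4 and IL13 as the polarizing agents (M2), medium from macrophages differentiated with PMA only (M0), and fresh RPMI that no cells had conditioned (Ctrl). Whether the 3 samples of a group were separate cultures is not stated in the labels, so p-values reflect only how far these samples lie apart, and that spread may be technical. Ctrl differs from M1, M2 and M0 medium also in the conditioning itself, and carry-over of PMA, LPS or cytokines into the media was not measured.

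Lysosomes are acidic compartments in which hydrolases such as the cathepsins break down material, with a proton pump, the V-ATPase, keeping the lumen acid. In autophagy a membrane forms under the control of the ULK1 kinase and the BECN1 complex, ATG8-type proteins such as LC3 are attached to it by the ATG conjugation enzymes, receptors such as SQSTM1 bring cargo, and the closed vesicle fuses with a lysosome. TFEB and TFE3 are transcription factors that mTORC1 signalling from the lysosome keeps out of the nucleus in fed cells, and that bind E-box letters in promoters of many genes of both kinds. Melanoma cells are known to use autophagy to recycle nutrients.

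Libraries held 21788397 to 42921242 counts. In a principal component analysis the 4 groups separated, and M0 replicate 3 stood at -34.2 on component 3, beside -14.7 and -7.9 for the other M0 libraries. Counts of replicates were also compared by a chi-square per degree of freedom. It was 22.26 and 28.12 for Ctrl replicate 1 with the other Ctrl libraries, against 4.51 between those. For M1 replicate 2 it was 20.61 and 21.58, against 4.66, and for M0 replicate 3 it was 12.09 and 20.72, against 7.53. In M2 it was 3.18 to 9.29. Of the 14088 genes tested, the share called in M2 against M0 depended on M0 replicate 3 and M2 replicate 2, so results of that comparison are also given without these libraries. They were picked for that effect. M2 replicate 2 did not stand apart on component 3 (25.2, beside 14.6 and 23.8 for the other M2 libraries). With both dropped fewer libraries enter the fit, so a call that ends there does not show that a change is absent. RNA of the macrophages themselves was near absent. Of 13 macrophage markers, 0 exceeded 1 CPM (read counts scaled to library size) in any library, 4 to 7 were at 0 in each, AIF1 had 0 reads in all 12 libraries, and SPI1 and TYROBP had 1 read each. The summed marker level was 0.634 to 0.982 CPM in M1, 0.429 to 0.709 CPM in M2, 0.559 to 0.911 CPM in M0 and 0.737 to 1.05 CPM in Ctrl. Of 12 melanoma markers, 4 or 5 exceeded 1 CPM in each library, among them AXL, MCAM, CSPG4 and SOX9, while the pigment cell markers TYR, MLANA, PMEL, DCT and SOX10 were at 0 to 0.125 CPM in group means. Their summed level was 1310 to 1420 CPM in M1, 1870 to 1950 CPM in M2, 2190 to 2310 CPM in M0 and 2430 to 3160 CPM in Ctrl, and its part in the results was not tested. Unlike TYR, MLANA, PMEL, DCT and SOX10, the pigment cell gene MITF exceeded 1 CPM in the group means of M1 (2.18 CPM) and M0 (3.10 CPM). Since the RNA is from whole cultures, fewer cells with a transcript and less of it per cell cannot be told apart.

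All 35 members passed the filter on low counts. For 34 of them the counts of each group sufficed, whereas CTSS passed only through M1. Counts of members called in M1 against M0, M2 or Ctrl with all libraries are therefore also given without it. Counts for any difference among M1, M2 and M0, and those over left-out libraries or alternatives, include it. Calls are those with an adjusted p under 0.05 in edgeR's quasi-likelihood test with Benjamini-Hochberg adjustment over 14088 genes, to which all adjusted p-values below refer. Comparisons that share M0 or Ctrl samples are not independent of each other.

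The promoters of the lysosomal members are shown first, because TFEB and TFE3 RNA differed between the media and the letters TCACGTG are the core they are known to bind. In RefSeq windows of the build GRCh38.p14, 28 of 35 members had an entry, and the 250 bases before each annotated start were searched on both strands. Some places read TCACGTGA, where matches on the 2 strands overlap. The letters were present in 7 of 11 lysosomal members searched, in 1 of 15 autophagy members and in 0 of 2 factor genes. They were in 3.31% of all 35116 windows and, counted by gene as for the members, in 4.02% of 27305 symbols. Stretches around the matches follow, 5′ to 3′ on the strand of the gene, with the matched letters in capitals. LAMP1 holds 5 such places, and GAA, MCOLN1 and CTSA hold 2 each.
LAMP1 (chr13:113297026-113297237, plus strand): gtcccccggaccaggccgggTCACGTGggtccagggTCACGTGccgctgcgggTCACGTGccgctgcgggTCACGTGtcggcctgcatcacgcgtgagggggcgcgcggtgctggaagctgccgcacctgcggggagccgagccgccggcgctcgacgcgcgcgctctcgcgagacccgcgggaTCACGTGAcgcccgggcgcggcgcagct
GAA (chr17:80101484-80101576, plus strand): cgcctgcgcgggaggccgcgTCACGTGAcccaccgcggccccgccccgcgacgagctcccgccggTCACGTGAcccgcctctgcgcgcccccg
MCOLN1 (chr19:7522562-7522623, plus strand): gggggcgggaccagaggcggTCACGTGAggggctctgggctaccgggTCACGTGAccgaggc
CTSA (chr20:45891272-45891334, plus strand): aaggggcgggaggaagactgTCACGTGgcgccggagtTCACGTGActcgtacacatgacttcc
ATP6V0D1 (chr16:67481190-67481237, minus strand): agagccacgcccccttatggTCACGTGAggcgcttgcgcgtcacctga
NEU1 (chr6:31862922-31862968, minus strand): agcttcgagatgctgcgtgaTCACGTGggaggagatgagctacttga
CTSD (chr11:1763948-1763994, minus strand): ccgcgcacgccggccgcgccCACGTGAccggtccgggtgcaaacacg
ATG3 (chr3:112561963-112562001, minus strand): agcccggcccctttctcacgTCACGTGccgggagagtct

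Another pattern, the letters GGGA and TTCC with any 2 bases between them, was searched because NF-kB, whose binding letters it approximates, is named in the title of the study. It was found in 1.4% of all windows (1.73% of symbols) and, among the members, in OPTN alone, where matches on the 2 strands overlap. The letters TGATGNAA, which approximate the letters bound by the stress factor ATF4, were in 3.14% of windows (3.89% of symbols) and in no member searched. The search was made with the RNA results known, and a match describes the letters only.
OPTN (chr10:13100050-13100081, plus strand): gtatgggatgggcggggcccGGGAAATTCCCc

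Between M1 or M2 and M0 medium, members were called about as often as genes in general, and the largest changes were those of CTSS and of a few autophagy genes. In M1 against M0, 19 of 35 members (54.3%) were called, beside 52.2% of all genes, 16 higher and 3 lower, where 25.5% of all genes were higher and 26.7% lower. Without CTSS 18 of 34 were called, 15 higher and 3 lower. Changes of at least 2-fold numbered 6 (5 without CTSS), beside 9.19% of all genes, in CTSS, GABARAPL1, OPTN, ULK1, SQSTM1 and WIPI1. In M2 against M0, 9 of 35 members (25.7%) were called, beside 25.2% of all genes, 4 higher (12.5% of all genes) and 5 lower (12.7%), and with library totals in place of TMM scaling the split was 6 higher and 2 lower. In M1 against M2, 17 of 35 (48.6%) were called, beside 32.5% of all genes, 14 higher and 3 lower, where 15.9% of all genes were higher and 16.6% lower, and 16 of 34 without CTSS, 13 higher and 3 lower. Changes of at least 2-fold were 1 in M2 against M0 (GABARAPL1) and 2 in M1 against M2 (CTSS and OPTN, 1 without CTSS), beside 2.22% and 4.84% of all genes. Any difference among M1, M2 and M0 was called for 22 of 35 members, beside 56.6% of all genes.

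Against fresh medium more members and more genes in general were called. In M1 against Ctrl they numbered 23 (65.7%), beside 70.2% of all genes, 17 higher and 6 lower, where 35.2% of all genes were higher and 35% lower, and 22 of 34 without CTSS, 16 higher and 6 lower. In M2 against Ctrl 29 of 35 (82.9%) were called, beside 66.5% of all genes, 15 higher and 14 lower, where 34.1% of all genes were higher and 32.4% lower. In M0 against Ctrl 26 of 35 (74.3%) were called, beside 61.7% of all genes, 17 higher and 9 lower, where 31.1% of all genes were higher and 30.6% lower. At least 2-fold changes numbered 9 members in M1 (8 without CTSS), 10 in M2 and 9 in M0, beside 23.6%, 19.7% and 16.4% of all genes.

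Changes of at least 2-fold in M1 against M0 were in 1 of 18 lysosomal members, CTSS, and 5 of 15 autophagy members. In that comparison 8 of 18 lysosomal members rose and 1 fell, the median log2 fold change being 0.11, or 7 and 1 of 17 with a median of 0.05 without CTSS, while 8 of 15 autophagy members rose and 1 fell, with a median of 0.17. The median of absolute log2 fold changes was 0.19 for the lysosomal members (0.18 without CTSS) and 0.22 for the autophagy members, and 0.31 over all genes. Against Ctrl the medians lay further apart. In M1 against Ctrl the median log2 fold change was 0.03 for lysosomal members, with 7 higher and 4 lower (0, with 6 and 4, without CTSS), and 0.61 for autophagy members, with 8 higher and 2 lower. In M2 against Ctrl it was -0.17 for lysosomal members, with 5 higher and 8 lower, and 0.42 for autophagy members, with 8 higher and 6 lower. In M0 against Ctrl it was 0.03, with 6 higher and 7 lower, and 0.41, with 9 higher and 2 lower. The medians over all genes were between -0.03 and 0.02 in the 6 comparisons. The difference between the lists was not tested.

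**Figure D1:**
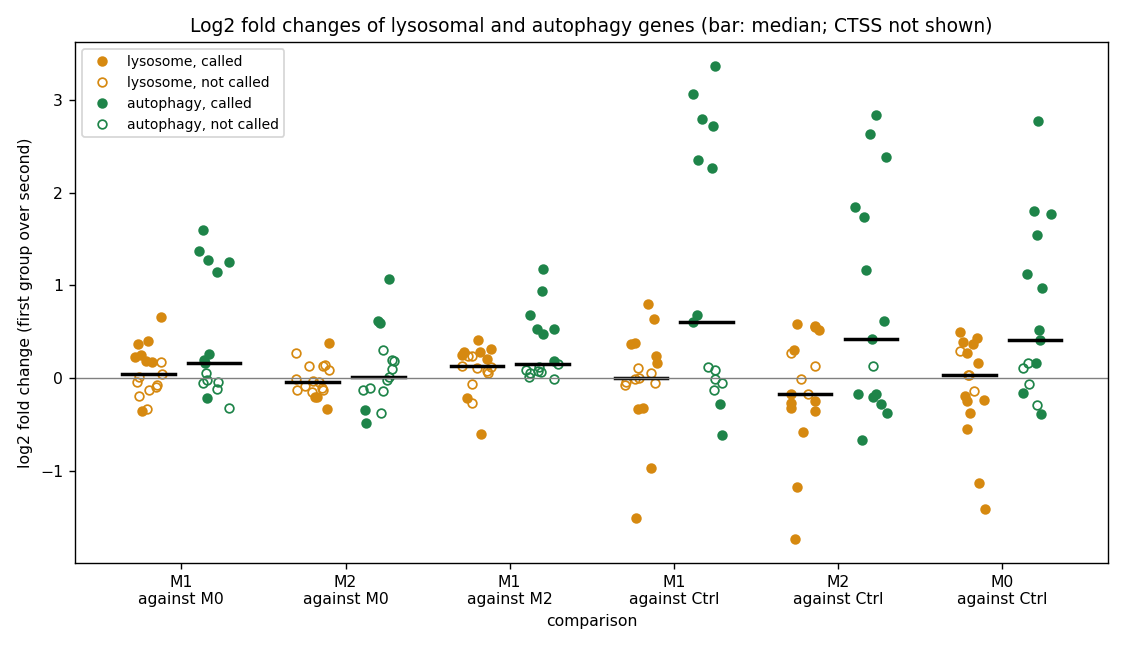
Log2 fold changes (vertical axis) of lysosomal members (orange, left in each pair) and autophagy members (green, right) in the 6 comparisons on the horizontal axis, filled where called, with medians as black bars and CTSS left out. Against Ctrl a group of autophagy genes stands above the rest in all 3 comparisons, up to 3.37 in M1, while called lysosomal genes fall on both sides of 0.

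In summed level the autophagy members held 3939 to 4101 CPM in M1, 2703 to 2842 CPM in M2, 2381 to 2859 CPM in M0 and 1234 to 1284 CPM in Ctrl. The lysosomal members held 3782 to 3935 CPM in M1, 3692 to 3911 CPM in M2, 3525 to 3872 CPM in M0 and 2969 to 3213 CPM in Ctrl. Most of the difference of the autophagy sum from Ctrl was in 2 genes. SQSTM1 and MAP1LC3B held 59% to 61.6% of the autophagy sum in M1, 54.9% to 56.4% in M2, 51% to 58.8% in M0 and 27.2% to 29% in Ctrl. The other 13 autophagy members summed to 1570 to 1610 CPM in M1, 1210 to 1240 CPM in M2, 1170 to 1180 CPM in M0 and 886 to 933 CPM in Ctrl.

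**Figure D2:**
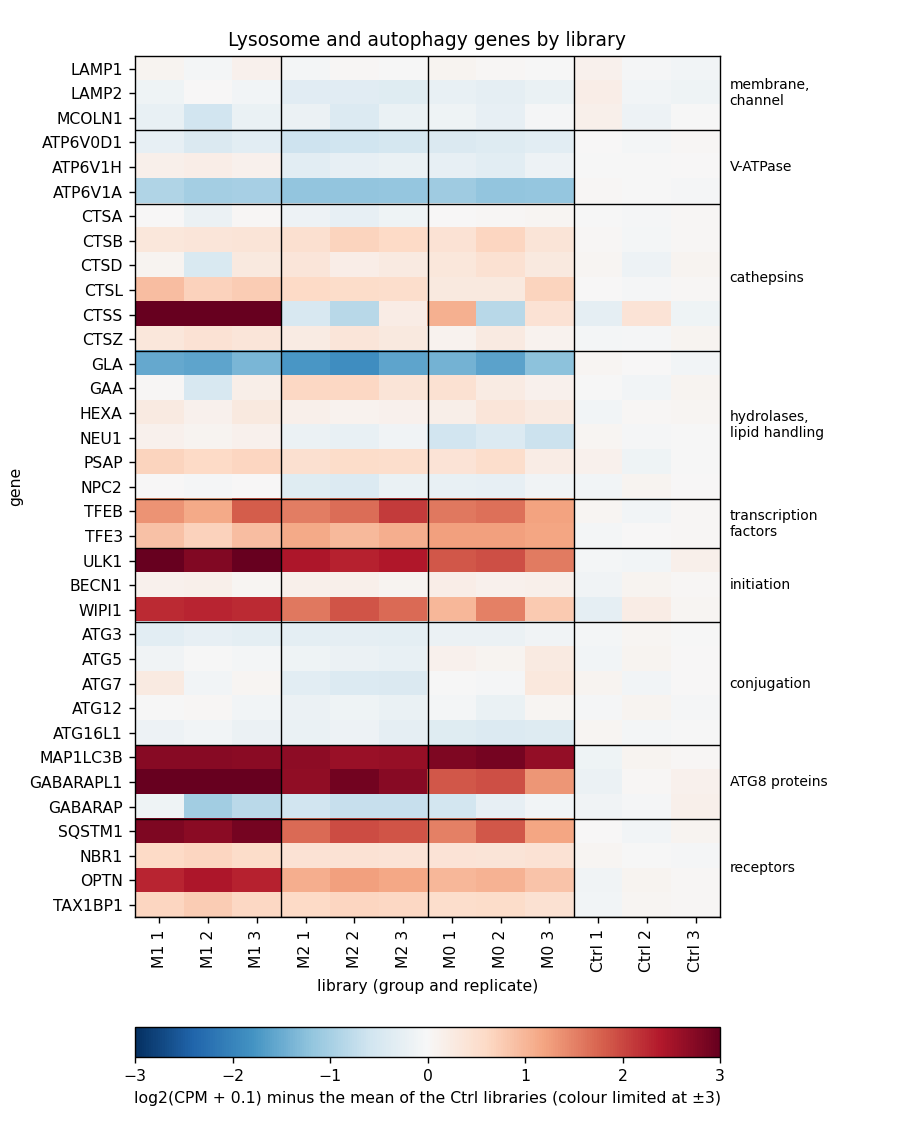
Level of each member (vertical axis, grouped by role) in each of the 12 libraries (horizontal axis), as log2 of CPM plus 0.1 minus the mean of the Ctrl libraries, red above and blue below Ctrl, with colours limited at 3. ULK1, WIPI1, MAP1LC3B, GABARAPL1, SQSTM1 and OPTN are red in all 9 libraries of conditioned medium, GLA and ATP6V1A are blue in all 9, and CTSS is dark red only in the 3 M1 libraries.

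Per kilobase of exon, the most abundant members in Ctrl were lysosomal. PSAP, the precursor of the saposins that present lipids to hydrolases, stood at 185 CPM per kb in Ctrl, the carboxypeptidase cathepsin gene CTSZ at 149, CTSB at 122 and CTSL at 102. On the same scale SQSTM1 stood at 228 CPM per kb in M1, 119 in M2, 96.1 in M0 and 32.9 in Ctrl, and MAP1LC3B at 129 in M1, 121 in M2, 134 in M0 and 19.6 in Ctrl. TFEB was low, at 0.537 CPM per kb in M1, 0.677 in M2, 0.550 in M0 and 0.183 in Ctrl.

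Membrane and channel genes changed little. LAMP1, the abundant glycoprotein of the lysosomal membrane with 5 TCACGTG places in its promoter window, was not called in any of the 6 comparisons, with log2 fold changes of -0.04 to 0.06. Its levels were 221 to 252 CPM in M1, 223 to 238 CPM in M2, 230.4 to 244 CPM in M0 and 219.9 to 250.6 CPM in Ctrl, and all groups overlapped. LAMP2, which also serves chaperone-mediated autophagy, was higher in M1 than in M2 (log2 0.28, SE 0.08, adjusted p = 0.0122) and lower than in Ctrl in M2 (-0.35, adjusted p = 0.00094) and in M0 (-0.24, adjusted p = 0.0133). MCOLN1, the calcium channel TRPML1 of the lysosome, fell against Ctrl in M1 (log2 -0.33, adjusted p = 0.0154) and in M2 (-0.27, adjusted p = 0.0451). The M1 call ended without Ctrl replicate 1 (adjusted p = 0.0866) or M1 replicate 2 (0.0822). The M2 call ended without M2 replicate 2 (adjusted p = 0.178), M2 replicate 3, Ctrl replicate 1, Ctrl replicate 3, M0 replicate 1 or M1 replicate 1.

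The V-ATPase subunits were lower than in Ctrl in M2 and M0, and 2 of 3 in M1, with the largest change in ATP6V1A, the catalytic subunit of the soluble part. Over all genes 32.4%, 30.6% and 35% were lower in M2, M0 and M1 against Ctrl. ATP6V1A stood at 77.3, 71.3 and 72.1 CPM in M1 replicates 1 to 3, at 63.4, 63.25 and 64.7 CPM in M2, at 68.3, 63.3 and 64.6 CPM in M0 and at 148.6, 142 and 141 CPM in Ctrl. All 9 libraries of conditioned medium lay below the 3 Ctrl libraries, and the M1 values lay above those of both other conditioned media. The log2 fold change against Ctrl was -0.97 in M1 (SE 0.06, adjusted p = 7.13e-10), -1.17 in M2 (SE 0.06, adjusted p = 1.35e-10) and -1.14 in M0 (SE 0.06, adjusted p = 2.26e-10). ATP6V1A was higher in M1 than in M0 (log2 0.17, adjusted p = 0.0225) and than in M2 (0.21, adjusted p = 0.0124), and both calls ended without M1 replicate 1 (adjusted p = 0.08 and 0.0515).

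The other pump subunits moved by less. ATP6V1H, a regulatory subunit, was higher in M1 than in M0 (log2 0.40, SE 0.07, adjusted p = 0.000125) and than in M2 (0.41, adjusted p = 2e-04), and lower than in Ctrl in M2 (-0.25) and M0 (-0.24). Its rise of 0.17 in M1 against Ctrl was lost without Ctrl replicate 2 (adjusted p = 0.0729), Ctrl replicate 1, M1 replicate 1 or M1 replicate 2. ATP6V0D1, of the part in the membrane, fell against Ctrl by 0.33 in M1, 0.58 in M2 and 0.38 in M0 on the log2 scale (adjusted p = 0.000246, 1.02e-06 and 0.000106). Its promoter holds 1 TCACGTG place. In M1 against M2 all 3 subunits were higher in M1, beside 15.9% of all genes. Among the 14 measured of 16 other V-ATPase subunits, 5 were higher and 8 lower in M1 against Ctrl, 4 higher and 7 lower in M2, and 4 higher and 6 lower in M0, so that 92.9%, 78.6% and 71.4% were called, beside 70.2%, 66.5% and 61.7% of all genes. ATP6V1B2, another subunit of the soluble part, rose against Ctrl to 190 ± 11.2 CPM in M1, 173 ± 7.18 in M2 and 140.3 ± 10.2 in M0, against 89.5 ± 4.17 in Ctrl (SD, n = 3 each, log2 1.08, 0.95 and 0.65). ATP6V0A1, a membrane subunit, stood at 22.8 ± 2.70, 22.4 ± 1.62 and 25.7 ± 2.03 CPM in M1, M2 and M0, against 57.9 ± 11.3 in Ctrl (log2 -1.35, -1.37 and -1.17).

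Among the cathepsins, the proteases of the lysosome, CTSS stood apart. It encodes cathepsin S, known for processing the invariant chain of MHC class II. Its gene lies at chr1:150730196-150765957 on the minus strand (GRCh38). CTSS had 709, 463 and 636 reads in M1 replicates 1 to 3, 1, 0 and 3 reads in M2, 8, 0 and 4 reads in M0, and 2, 4 and 2 reads in Ctrl. In CPM this was 18.0, 14.8 and 17.35 in M1, 0.0271, 0 and 0.107 in M2, 0.270, 0 and 0.140 in M0, and 0.0457, 0.134 and 0.0625 in Ctrl. The 3 M1 libraries did not overlap any other, and the values of the other 9 lay within 0.270 CPM. The log2 fold change was 6.77 in M1 against M0 (SE 0.33, adjusted p = 2.94e-10), 8.48 in M1 against M2 (SE 0.38, adjusted p = 1.11e-10) and 7.71 in M1 against Ctrl (SE 0.34, adjusted p = 2.31e-11). With so few reads in the other media its size rests on single libraries, and it was 7.66 against M0 without M0 replicate 1 and 9.77 against M2 without M2 replicate 3. CTSS was tested only because it passed the filter on low counts through M1, so its p-values are not free of that selection. A library with 0 reads allows up to 3, which is 0.138 CPM in M0 replicate 2 and 0.107 CPM in M2 replicate 2. CTSS is also a gene of macrophages, whose 13 markers summed to under 1 CPM in each M1 library.

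The other 5 cathepsins among the members changed by less than 2-fold. CTSL, a cysteine protease, stood at 458, 388 and 409 CPM in M1, 368, 352 and 346 CPM in M2, 296, 295 and 384 CPM in M0, and 242, 235 and 247 CPM in Ctrl. M1 lay above M0, of which replicate 3 was the highest, and all conditioned media lay above Ctrl (log2 0.36 in M1 against M0, adjusted p = 0.00356; 0.79 in M1, 0.56 in M2 and 0.43 in M0 against Ctrl). CTSB, the cathepsin with the most reads, rose against Ctrl by 0.37 in M1, 0.58 in M2 and 0.50 in M0 on the log2 scale (adjusted p = 0.000306, 3.92e-06 and 2.38e-05). It was lower in M1 than in M2 (log2 -0.21, adjusted p = 0.034), a call that was kept only without Ctrl replicate 1, M0 replicate 2, M0 replicate 3 or M2 replicate 1 and otherwise ended with any 1 library left out, with adjusted p up to 0.141 without M2 replicate 2. CTSZ rose in M1 against M0 (log2 0.22, adjusted p = 0.0099), and against Ctrl by 0.38 in M1 and 0.30 in M2.

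The calls of CTSD and CTSA depended on single libraries. CTSD, an aspartic protease, was lower in M1 than in M0 (log2 -0.36, adjusted p = 0.0329), at 43.7 to 73.2 CPM in M1 and 73.4 to 82.6 CPM in M0. That call was kept only without M1 replicate 3, M2 replicate 2 or M2 replicate 3 and ended with any other library left out, and without M1 replicate 2, the lowest, the log2 fold change was -0.17 (adjusted p = 0.137). The rise of CTSD in M0 against Ctrl (0.36, adjusted p = 0.0272) ended without Ctrl replicate 2 (adjusted p = 0.143), Ctrl replicate 1, M0 replicate 1 or M0 replicate 2. That of CTSZ in M0 against Ctrl (0.16, adjusted p = 0.0446) was kept only without Ctrl replicate 3 or M1 replicate 2, with adjusted p up to 0.295 without M0 replicate 2. Counts of CTSD are uncertain, as 1304 nt of its exons overlap another gene on the same strand. CTSA, the protective protein that stabilizes NEU1, was 0.21 lower on the log2 scale in M2 than in M0 (adjusted p = 0.0302) and 0.17 lower in M2 than in Ctrl, both lost without M2 replicate 2 (adjusted p = 0.138 and 0.129). The call against M0 also ended without any other M2 or M0 library, and that against Ctrl without Ctrl replicate 3. NEURL2, AL008726.1 and PLTP on the other strand overlap 1668 nt of CTSA exons, so its counts may include their reads.

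Among the other hydrolases, NEU1 had the largest change in M1 against M0 and GLA the largest against Ctrl. NEU1, the lysosomal sialidase, stood at 26.55, 25.9 and 26.6 CPM in M1, 21.5, 21.0 and 22.5 CPM in M2, 16.4, 18.25 and 15.5 CPM in M0, and 25.4, 23.65 and 24.1 CPM in Ctrl. The 4 groups did not overlap, with M0 lowest and M1 highest. NEU1 rose against M0 in M1 (log2 0.66, SE 0.08, adjusted p = 5.88e-06) and in M2 (0.38, SE 0.08, adjusted p = 0.00368), and was lower in M0 than in Ctrl (-0.55, adjusted p = 1.79e-05). M1 and M2 were not called against Ctrl (log2 0.11 and -0.17, adjusted p = 0.195 and 0.0591), but M2 was called lower with DESeq2, RLE scaling, library totals, a fit of these groups alone and limma, and without M0 replicate 2, M0 replicate 3 or M1 replicate 2. The M2 rise over M0 ended without both M0 replicate 3 and M2 replicate 2 (log2 0.35, adjusted p = 0.0537).

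GLA, the alpha-galactosidase that is deficient in Fabry disease, was lower in every conditioned medium. It stood at 8.24, 8.06 and 9.30 CPM in M1, 7.13, 6.63 and 8.05 CPM in M2, 9.08, 7.87 and 10.3 CPM in M0, and 25.4, 24.35 and 23.05 CPM in Ctrl. No conditioned library came near the Ctrl values, while M1 and M2 values overlapped those of M0. The log2 fold change against Ctrl was -1.51 in M1 (SE 0.11, adjusted p = 5.16e-09), -1.74 in M2 (SE 0.11, adjusted p = 2.01e-09) and -1.41 in M0 (SE 0.11, adjusted p = 2.37e-08). The difference between M2 and M0 was -0.33 on that scale (adjusted p = 0.0468), a call kept only without M0 replicate 2, M1 replicate 2, M1 replicate 3 or M2 replicate 3, with adjusted p up to 0.243 without M0 replicate 3.

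GAA, the acid alpha-glucosidase that degrades glycogen, was at few CPM. It stood at 5.45, 3.74 and 6.03 CPM in M1, 8.245, 8.12 and 6.90 CPM in M2, 7.25, 6.285 and 5.78 CPM in M0, and 5.275, 5.02 and 5.57 CPM in Ctrl. M2 was the highest and did not overlap M1 or Ctrl. GAA was lower in M1 than in M2 (log2 -0.61, SE 0.15, adjusted p = 0.00661) and higher in M2 than in Ctrl (0.55, adjusted p = 0.00475). PSAP rose against Ctrl by 0.64 in M1, 0.52 in M2 and 0.39 in M0 (adjusted p = 2.42e-06, 2.66e-05 and 0.00045), and in M1 against M0 by 0.25 (adjusted p = 0.0139, or 0.0644 with M0 replicate 3 and M2 replicate 2 dropped). HEXA, a subunit of beta-hexosaminidase, rose by 0.23 in M1 and 0.27 in M0 against Ctrl, with 617 nt of its exons shared with another gene on the same strand. NPC2, the cholesterol carrier of the lumen, was higher in M1 than in M2 (log2 0.31, adjusted p = 0.00413) and lower than in Ctrl in M2 (-0.32). Its call in M1 against M0 (0.18, adjusted p = 0.0481) ended without M0 replicate 2 (adjusted p = 0.102), M0 replicate 1, M1 replicate 1, M1 replicate 3 or M2 replicate 2, and that in M0 against Ctrl (-0.19, adjusted p = 0.0345) without Ctrl replicate 2 (adjusted p = 0.094), Ctrl replicate 3, M0 replicate 1 or M0 replicate 2.

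Of 41 other lysosomal genes on a wider list, 38 were measured. In M1 against M0, 16 rose and 5 fell (55.3% called, beside 52.2% of all genes), among them CTSO, a cathepsin gene, at 5.24 ± 0.359 CPM in M1, against 2.19 ± 0.182 CPM in M0 (log2 1.26, adjusted p = 1.21e-05), and MANBA, the lysosomal beta-mannosidase, at 72.3 ± 1.92 CPM in M1, against 38.9 ± 2.505 CPM in M0. CTSC, the protease that activates granule serine proteases, was lower, at 64.8 ± 6.63 CPM in M1, against 144 ± 23.8 CPM in M0 (log2 -1.15, adjusted p = 5.98e-07). In M1 against M2 the list had 19 higher and 1 lower, CTSC (52.6% called, beside 32.5% of all genes). Its counts in M2 against M0 were 2 higher and 7 lower (23.7% called, beside 25.2% of all genes), with 0 higher and 1 lower (CTSC) when M0 replicate 3 and M2 replicate 2 were dropped. Against Ctrl, 13 were higher and 14 lower in M1, 7 and 18 in M2, and 7 and 19 in M0. These were 71.1%, 65.8% and 68.4% of the list, close to the 70.2%, 66.5% and 61.7% of all genes. CTSC stood higher in Ctrl than in M1, M2 or M0, at 278.5 ± 10.7 CPM in Ctrl and 91.9 ± 8.76 CPM in M2. Its log2 fold change in M1 against Ctrl was -2.10 (adjusted p = 1.53e-10). NPC1, the cholesterol exporter that works with NPC2, rose to 276 ± 6.85 CPM in M1, 282 ± 2.74 in M2 and 226 ± 15.4 in M0, against 70.6 ± 13.2 in Ctrl. GM2A, the activator that presents GM2 ganglioside to beta-hexosaminidase, stood at 17.6 ± 0.872 CPM in M1, 12.8 ± 0.618 CPM in M2 and 16.9 ± 2.03 in M0, against 39.1 ± 1.70 in Ctrl (SD, n = 3 each).

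Both factor genes were higher than in Ctrl in every conditioned medium, where 35.2% of all genes were higher in M1, 34.1% in M2 and 31.1% in M0. TFEB stood at 2.79, 2.40 and 3.90 CPM in M1, 3.17, 3.51 and 4.79 CPM in M2, 3.31, 3.49 and 2.52 CPM in M0, and 1.07, 0.971 and 1.06 CPM in Ctrl. The conditioned media overlapped each other, and no library of theirs overlapped Ctrl. The log2 fold change of TFEB against Ctrl was 1.54 in M1 (SE 0.23, adjusted p = 1.74e-05), 1.87 in M2 (SE 0.22, adjusted p = 2.63e-06) and 1.57 in M0 (SE 0.23, adjusted p = 2.86e-05). TFE3, far more abundant, stood at 157, 137 and 163 CPM in M1, 187, 167 and 181 CPM in M2, 199.7, 199.3 and 193 CPM in M0, and 82.4, 85.5 and 87.7 CPM in Ctrl. M1 did not overlap M2 or M0, and lay below them. TFE3 was lower in M1 than in M0 (log2 -0.38, SE 0.07, adjusted p = 0.000331) and higher than Ctrl by 0.84 in M1, 1.07 in M2 and 1.21 in M0 (adjusted p = 3.38e-08, 3.24e-09 and 9.88e-10). Its call in M1 against M2 (-0.23, adjusted p = 0.0176) ended without M2 replicate 1 (adjusted p = 0.126), M1 replicate 2 or M2 replicate 3.

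Of the 7 lysosomal members with TCACGTG in the promoter window, 0 were higher and 2 lower in M1 against Ctrl, 1 (GAA) was higher and 3 lower in M2 against Ctrl, and 1 (CTSD) was higher and 2 lower in M0 against Ctrl, with median log2 fold changes of -0.04, -0.17 and 0.03. Over all genes 35.2% were higher and 35% lower in M1 against Ctrl, 34.1% and 32.4% in M2, and 31.1% and 30.6% in M0. Of the 4 lysosomal members searched that lack the letters, CTSL and CTSZ were higher in each of these comparisons, while GLA was lower in each and NPC2 was lower in M2 and M0, with medians of 0.19, -0.01 and -0.02. Sets this small were not tested against each other. RNA levels of TFEB and TFE3 do not show where the proteins were in the cells, which was not measured.

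The autophagy initiation genes ULK1 and WIPI1 were highest in M1, followed by M2, M0 and Ctrl. ULK1, the kinase that starts autophagosome formation, stood at 163, 130.0 and 184.5 CPM in M1, 102, 94.85 and 101 CPM in M2, 69.2, 73.2 and 55.8 CPM in M0, and 18.2, 17.85 and 21.0 CPM in Ctrl. The 4 groups did not overlap. ULK1 rose in M1 against M0 by 1.27 (SE 0.12, adjusted p = 5.61e-07) and in M2 against M0 by 0.59 (SE 0.12, adjusted p = 0.00315) on the log2 scale, and M1 was 0.68 above M2 (adjusted p = 0.000355). Against Ctrl the log2 fold change was 3.07 in M1, 2.39 in M2 and 1.80 in M0 (adjusted p = 9.73e-12, 2.72e-10 and 7.91e-09). The call of ULK1 in M2 against M0 ended with M0 replicate 3 and M2 replicate 2 dropped (log2 0.51, adjusted p = 0.0567).

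WIPI1, which binds phosphatidylinositol 3-phosphate on the forming membrane, had the same order. It stood at 36.2, 37.6 and 36.3 CPM in M1, 23.2, 28.5 and 24.96 CPM in M2, 15.35, 21.8 and 13.1 CPM in M0, and 6.26, 8.91 and 7.94 CPM in Ctrl, with no overlap between groups. WIPI1 rose in M1 against M0 by log2 1.14 (SE 0.15, adjusted p = 2.01e-05) and against Ctrl by 2.26 in M1, 1.74 in M2 and 1.12 in M0. The rise in M2 against M0 (0.62, SE 0.15, adjusted p = 0.01) ended without M0 replicate 3 (log2 0.47, adjusted p = 0.0619) and without M2 replicate 2 (0.53, adjusted p = 0.0516), and that in M1 against M2 (0.53, adjusted p = 0.0123) without M2 replicate 1 (0.47, adjusted p = 0.0592). Counts of WIPI1 may include reads of ARSG and AC007780.1 on the other strand, which together overlap 955 nt of its exons. BECN1, of the lipid kinase complex that acts after ULK1, was flat, at 66.4 to 74.1 CPM in group means. It was called only in M0 against Ctrl (log2 0.16, adjusted p = 0.0398), a call kept only without Ctrl replicate 2, M1 replicate 2 or M1 replicate 3, with adjusted p up to 0.226 without Ctrl replicate 1. Its exons overlap CNTD1 and PSME3 on the other strand over 1095 nt.

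**Figure D3:**
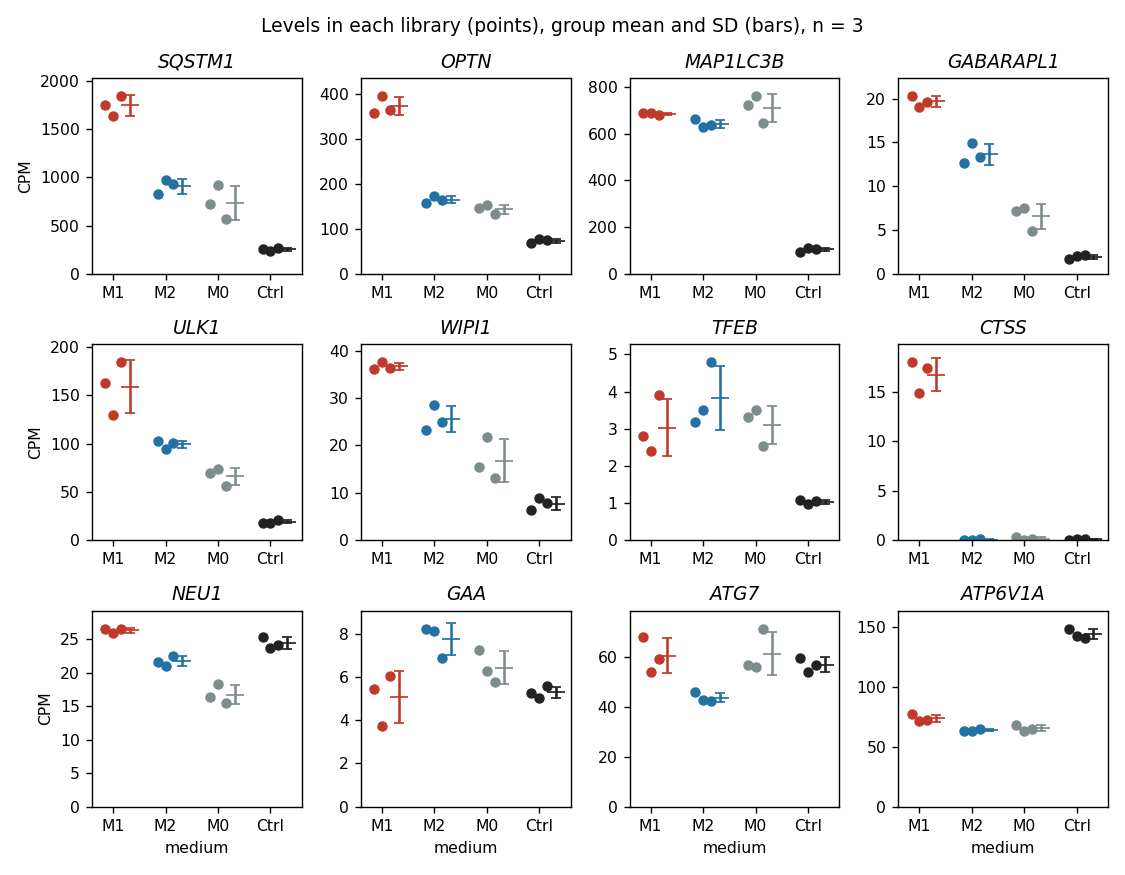
CPM (vertical axis, from 0) of 12 members in each library (points) of M1, M2, M0 and Ctrl (horizontal axis), with group mean and SD beside them (n = 3). ULK1, WIPI1 and GABARAPL1 step down in the order M1, M2, M0 and Ctrl, MAP1LC3B is alike in the 3 conditioned media and low in Ctrl, and SQSTM1 and OPTN are highest in M1.

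The conjugation genes did not share this pattern. These 5 genes had log2 fold changes between -0.49 and 0.47 in the 6 comparisons. In M2 against Ctrl 5 of 5 were lower, beside 32.4% of all genes. ATG7, the activating enzyme for both conjugation systems, stood at 67.9, 53.9 and 59.2 CPM in M1, 45.7, 42.8 and 42.2 CPM in M2, 56.6, 55.7 and 71.2 CPM in M0, and 59.6, 53.8 and 56.8 CPM in Ctrl. M2 lay below all other libraries. ATG7 fell in M2 against M0 by 0.49 (SE 0.10, adjusted p = 0.0034) and in M2 against Ctrl by 0.38 (adjusted p = 0.00294) on the log2 scale, and was higher in M1 than in M2 (0.47, adjusted p = 0.00187). Without both M0 replicate 3 and M2 replicate 2 its log2 fold change in M2 against M0 was -0.35 (adjusted p = 0.0811). The exons of ATG7 overlap VGLL4 on the other strand over 1596 nt.

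ATG5, which is joined to ATG12, was lower than in M0 in M1 (log2 -0.22, adjusted p = 0.0153) and in M2 (-0.34, adjusted p = 0.00364). The M1 call ended without M0 replicate 3 (adjusted p = 0.115) and M1 replicate 1 (0.0738), and the M2 call without both M0 replicate 3 and M2 replicate 2 (log2 -0.28, adjusted p = 0.0769). ATG16L1, which places that conjugate on the membrane, was higher in M1 than in M0 (log2 0.26, adjusted p = 0.00359) and lower than in Ctrl in M0 (-0.39, adjusted p = 8.65e-05) and M2 (-0.21, adjusted p = 0.0101, and 0.0618 without M2 replicate 3). ATG3, the enzyme that transfers ATG8 proteins to lipid, fell against Ctrl by 0.28 in M1, 0.29 in M2 and 0.16 in M0 (adjusted p = 0.000302, 0.000277 and 0.0208, the last 0.0517 without Ctrl replicate 2). In M2 against Ctrl the calls of ATG5 and ATG12 (-0.18 and -0.17, adjusted p = 0.0349 and 0.045) ended without M2 replicate 3 (adjusted p = 0.123 and 0.129), M2 replicate 2 or Ctrl replicate 2, that of ATG5 also without Ctrl replicate 3, and that of ATG12 also without M1 replicate 1 or M2 replicate 1.

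The ATG8-type genes gave 3 different patterns. MAP1LC3B, which encodes LC3B, stood at 687, 688 and 679.9 CPM in M1, 663, 628.5 and 638 CPM in M2, 724, 764 and 647 CPM in M0, and 95.02, 110.5 and 107 CPM in Ctrl. All 9 conditioned libraries lay far above Ctrl, and M0 overlapped both M1 and M2. Against Ctrl the log2 fold change was 2.72 in M1 (SE 0.07, adjusted p = 7.6e-14), 2.63 in M2 (SE 0.07, adjusted p = 2.12e-13) and 2.77 in M0 (SE 0.07, adjusted p = 1.33e-13), while the difference from M0 was -0.05 in M1 (SE 0.07, adjusted p = 0.532) and -0.15 in M2 (SE 0.07, adjusted p = 0.137).

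GABARAPL1, a homologue of LC3 that is known to be induced in starved cells, followed the order of ULK1. It stood at 20.3, 19.0 and 19.7 CPM in M1, 12.6, 14.9 and 13.3 CPM in M2, 7.19, 7.54 and 4.91 CPM in M0, and 1.69, 1.98 and 2.095 CPM in Ctrl. The 4 groups did not overlap. GABARAPL1 rose against M0 by log2 1.60 in M1 (SE 0.13, adjusted p = 1.84e-07) and 1.06 in M2 (SE 0.14, adjusted p = 0.000411), and M1 was 0.53 above M2 (adjusted p = 0.00399). Against Ctrl the log2 fold change was 3.37 in M1, 2.83 in M2 and 1.77 in M0 (adjusted p = 2.55e-11, 3.57e-10 and 1.62e-07). It was the 1 member still called in M2 against M0 without both M0 replicate 3 and M2 replicate 2 (log2 0.82, adjusted p = 0.00683). GABARAP was at 2.496 to 5.82 CPM and lower than in Ctrl by 0.61 in M1 (adjusted p = 0.0107) and 0.67 in M2 (adjusted p = 0.00789) on the log2 scale. The M1 call ended without M1 replicate 2 or 3 (adjusted p = 0.0568 and 0.0542), and its counts are uncertain, since 691 of 2266 nt of its exons overlap another gene on the same strand.

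All 4 receptor genes were higher in M1 than in M0, beside 25.5% of all genes. They were also higher than in Ctrl in every conditioned medium, beside 35.2% of all genes in M1, 34.1% in M2 and 31.1% in M0. SQSTM1, which encodes p62, a receptor for ubiquitin-tagged cargo and also a signalling scaffold, is a gene at chr5:179806398-179838078 on the plus strand. It stood at 1754, 1638 and 1848 CPM in M1, 822.5, 974 and 928.5 CPM in M2, 722, 917 and 568 CPM in M0, and 253, 237 and 266 CPM in Ctrl. M1 lay above all other libraries, M2 and M0 overlapped, and M0 replicate 3 was the lowest of the conditioned libraries. SQSTM1 rose in M1 against M0 by log2 1.25 (SE 0.13, adjusted p = 1.34e-06), in M1 against M2 by 0.94 (SE 0.12, adjusted p = 3.5e-05), and against Ctrl by 2.79 in M1, 1.85 in M2 and 1.55 in M0 (adjusted p = 5.48e-11, 6.11e-09 and 5.41e-08). It was not called in M2 against M0 (log2 0.30, SE 0.12, adjusted p = 0.0838), though it was with no filter on low counts or without M0 replicate 2, and it was at 0.10 without both M0 replicate 3 and M2 replicate 2. Genes on the other strand overlap 1687 nt of its exons.

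OPTN, optineurin, a receptor for damaged mitochondria and bacteria and a regulator of NF-kB signalling, is a gene at chr10:13099449-13138308 on the plus strand and carries the GGGA and TTCC letters shown above. It stood at 357, 396 and 365 CPM in M1, 156.5, 172 and 165 CPM in M2, 147, 152 and 133 CPM in M0, and 67.8, 77.1 and 74.9 CPM in Ctrl. The groups did not overlap, with M2 just above M0. OPTN rose in M1 against M0 by log2 1.38 (SE 0.07, adjusted p = 7.75e-10), in M1 against M2 by 1.18 (SE 0.07, adjusted p = 4.67e-09), and against Ctrl by 2.35 in M1, 1.17 in M2 and 0.97 in M0 (adjusted p = 3.62e-13, 1.77e-09 and 1.76e-08). The log2 fold change of 0.19 in M2 against M0 was not called (SE 0.07, adjusted p = 0.0564), but was with DESeq2, library totals, a filter of 1 CPM in 3 samples, a fit of only these groups or a replicate block.

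The other 2 receptor genes moved by less. NBR1, which acts with SQSTM1 on ubiquitin-tagged cargo, was higher in M1 than in M0 (log2 0.20, SE 0.05, adjusted p = 0.00611) and than in M2 (0.18, adjusted p = 0.0148, and 0.0648 without M2 replicate 3), and rose against Ctrl by 0.61 in M1, 0.42 in M2 and 0.41 in M0. TAX1BP1, a receptor that also binds A20, rose against Ctrl by 0.68, 0.61 and 0.51 in M1, M2 and M0 (adjusted p = 8.25e-08, 3.46e-07 and 3.12e-06). Its rise in M1 against M0 (0.17, adjusted p = 0.0317) ended without M1 replicate 2 (adjusted p = 0.0847), M0 replicate 3 (0.0573) or M2 replicate 3 (0.05).

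A wider list of 36 other autophagy genes, all measured, had 13 higher and 2 lower in M1 against M0, 2 higher and 2 lower in M2 against M0, and 11 higher and 2 lower in M1 against M2. That was 41.7%, 11.1% and 36.1% of the list, beside 52.2%, 25.2% and 32.5% of all genes. Without M0 replicate 3, or without M2 replicate 2, 0 were higher and 1 lower in M2 against M0, GABARAPL2, another ATG8-type gene (30.6 ± 1.33 CPM in M2, against 39.35 ± 1.75 CPM in M0), whose call ended without both. Against Ctrl 21 were higher and 9 lower in M1, 19 and 9 in M2, and 16 and 6 in M0, or 83.3%, 77.8% and 61.1% called, beside 70.2%, 66.5% and 61.7% of all genes. WDR45, a relative of WIPI1, stood at 78.1 ± 5.02 CPM in M1, 82.6 ± 4.18 in M2 and 79.4 ± 7.03 in M0, against 21.8 ± 1.63 in Ctrl. CALCOCO2, the receptor NDP52, stood at 264 ± 23.8, 225.0 ± 12.8 and 196 ± 13.6 CPM in M1, M2 and M0, against 78.9 ± 7.19 in Ctrl. ATG4C, a protease that trims ATG8 proteins, was lower, at 9.91 ± 0.198, 10.1 ± 0.317 and 11.2 ± 0.303 CPM in M1, M2 and M0, against 23.4 ± 0.726 in Ctrl (SD, n = 3 each). ULK2, the paralogue of ULK1, rose in M1 against M0 to 22.6 ± 2.22 CPM in M1, against 12.2 ± 2.496 CPM in M0 (log2 0.90, adjusted p = 3.09e-05).

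How far the counts of members rest on single libraries differed between comparisons. Of the 19 members called in M1 against M0, 14 were called in all 12 fits with 1 library left out, and the same number were called when M0 replicate 3 and M2 replicate 2 were dropped, where 41.6% of all genes were called. Of the 9 called in M2 against M0, 5 were called in all 12 fits (GABARAPL1, ULK1, NEU1, ATG7 and ATG5). The count was 6 without M0 replicate 3, where 11.1% of all genes were called, 5 without M2 replicate 2 (13.5% of all genes) and 1 without both (3.6% of all genes). ATP6V0D1, at log2 -0.20 (adjusted p = 0.0315), lost its call in M2 against M0 without M0 replicate 3 (adjusted p = 0.151), M0 replicate 2 or any of the M2 libraries. Of the calls against Ctrl, 20 of 23 in M1, 24 of 29 in M2 and 21 of 26 in M0 were made in all 12 fits.

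**Figure D4:**
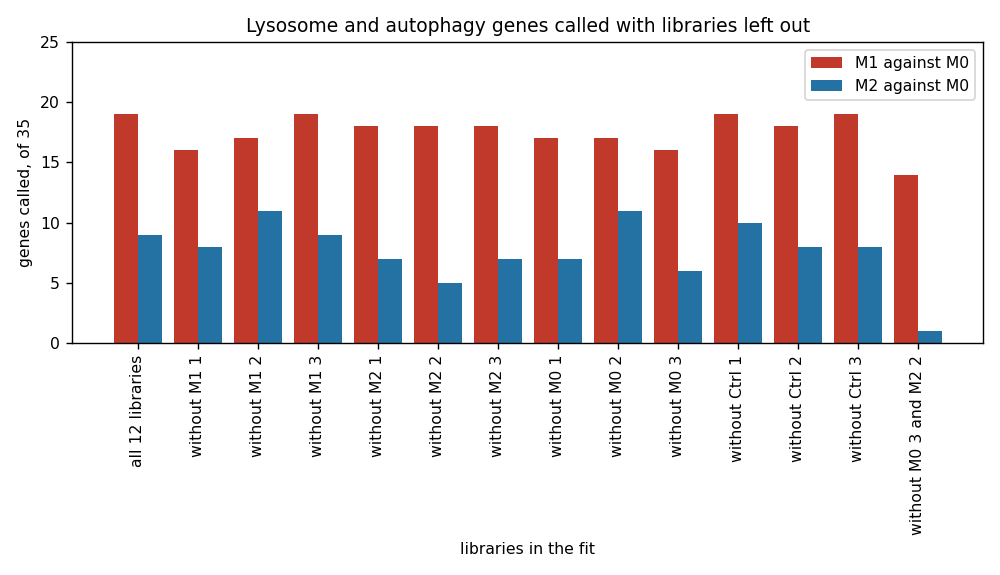
Number of the 35 members called (vertical axis, from 0) in M1 against M0 (red) and M2 against M0 (blue) with all 12 libraries and with the named library or libraries left out (horizontal axis). With single libraries left out, the M1 count stays between 16 and 19 and the M2 count between 5 and 11, and with M0 replicate 3 and M2 replicate 2 both dropped they are 14 and 1.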

How the data were processed

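RNA was measured in 12 samples of MV3 cells. Libraries came from a stranded mRNA kit and gave single reads of 50 nt in 2 sequencing runs, per the labels' protocols. Of tools, the submitters' processing notes list STAR 2.5.4b and Bowtie2 2.2.3 beside Trimmomatic 0.36, FastQC 0.11.7, DESeq2 1.20.0, R 3.5.0 and R 3.3.3, and hg38 as the build. The counting program, its strandedness option and the gene models used for counting were not given in the sources used here, so reads of genes that overlap on opposite strands cannot be told apart. The authors deposited raw read counts per gene. They also deposited variance-stabilized values on a log2-like scale, which were used for symbols and for 1 alternative test.

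Genes were tested in R 4.3.3 with edgeR 4.0.16 (quasi-likelihood test, TMM scaling, filterByExpr with a minimum count of 10 and a minimum total of 15, 1 fit of all 12 libraries), with Benjamini-Hochberg adjustment at 0.05 over 14088 genes. The common biological coefficient of variation was 0.0831. The procedure was tested on simulated data. Log2 fold changes come from this fit. SE is the absolute log2 fold change divided by the square root of the test's F statistic. It is approximate, above all at few reads, as for CTSS outside M1. CPM are TMM-scaled. Exon lengths, coordinates and overlaps came from GENCODE 29, where 55661 identifiers were found with their version number and 58025 when it was ignored, and promoter windows from RefSeq (GRCh38.p14). No promoter entry was used for LAMP2, ATP6V1H, ATP6V1A, CTSB, CTSS, HEXA and PSAP. A count of 0 allows up to 3 counts, and such floors cover counting error only.

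The members, lists and tests were chosen with earlier results of these data known. Values of every sample are given for the members with the 5 largest called changes in any of the 6 comparisons, and also for CTSL, GLA, ATP6V1A and TFE3, chosen after their values were seen. From each wider list the named genes are among the 2 largest called changes in each direction of a comparison. Alternatives were DESeq2 1.42.0, limma 3.58.1 on the variance-stabilized values, RLE scaling, library totals, no filter, at least 1 CPM in 3 samples, only the groups compared, a replicate block, and libraries left out.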

Additional observations from a re-analysis of the deposited data

How the results depend on the processing

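No called member changed its direction under any alternative, and no alternative shifted the median log2 fold change of all genes by more than 0.086. With DESeq2, RLE scaling, library totals, no filter, at least 1 CPM in 3 samples, only the groups compared, the replicate block and limma on variance-stabilized values, members called numbered 16 to 20 in M1 against M0, 8 to 11 in M2 against M0, 17 to 20 in M1 against M2, 22 to 23 in M1 against Ctrl, 28 to 31 in M2 against Ctrl and 22 to 26 in M0 against Ctrl. In M2 against M0, DESeq2 called 6 members higher and 5 lower. With library totals 2140 genes were higher and 1406 lower in M2 against M0, beside 1765 and 1788, and 1872 and 2954 in M1 against M2, beside 2240 and 2332. Leaving out single libraries gave 16 to 19 members in M1 against M0, 5 to 11 in M2 against M0, 14 to 19 in M1 against M2, 20 to 23 in M1 against Ctrl, 25 to 31 in M2 against Ctrl, 22 to 27 in M0 against Ctrl, and 19 to 24 for any difference among M1, M2 and M0. Only 1 member was called in M2 against M0 without M0 replicate 3 and M2 replicate 2, and 5 without M2 replicate 2; fewer libraries entered these fits. Apart from libraries left out, the members whose calls ended under an alternative were ATP6V1A, CTSD, NPC2 and ATG5 in M1 against M0, ATP6V0D1, CTSA and GLA in M2 against M0, CTSB and TFE3 in M1 against M2, ATP6V1H and HEXA in M1 against Ctrl, ATG5 and ATG12 in M2 against Ctrl, and CTSD, CTSZ, NPC2, BECN1 and ATG3 in M0 against Ctrl. All genes called in M2 against M0 fell to 520 without both, beside 3553.

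Replicate numbers were not taken as pairs, since the labels name no batch and no pairing. Of 18 pairs of same-numbered samples, 6 had correlated deviations over 0.1 (range -0.08 to 0.15), and 9 of 12 samples correlated best with their own number. That is at most a hint from the data, was not tested against chance, and is not part of the design. With the replicate number as a block, 19 members were called in M1 against M0, 10 in M2 against M0 (OPTN gained), 17 in M1 against M2, 23 in M1 against Ctrl, 28 in M2 against Ctrl (ATG12 lost) and 26 in M0 against Ctrl. Depth limits CTSS outside M1, and TFEB and GABARAP, at few CPM, had the widest standard errors of the other members.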

Other observations

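Genes of mTORC1 signalling at the lysosome, which holds autophagy in check in fed cells, were measured for 20 of 22 members of a list. Against Ctrl 10 were higher and 4 lower in M1, 8 and 5 in M2, and 10 and 3 in M0, or 70%, 65% and 65% of the list, near the 70.2%, 66.5% and 61.7% of all genes. In M1 against M0, 6 were higher and 7 lower (65%, beside 52.2% of all genes). MITF was among those lower (log2 -0.51, adjusted p = 0.0357, edgeR). That call ended without any single M0 library, M1 replicate 1, M1 replicate 3 or M2 replicate 1. SESN2, a leucine sensor that inhibits mTORC1, stood at 330 ± 13.9 CPM in M1, 414 ± 6.22 in M2 and 413 ± 18.0 in M0, against 5.65 ± 0.920 in Ctrl (SD, n = 3 each). DDIT4, another inhibitor of mTORC1, stood at 329 ± 4.24, 338 ± 6.56 and 326 ± 12.5 CPM in M1, M2 and M0, against 9.47 ± 1.33 in Ctrl. TSC2, also an inhibitor of mTORC1, went the other way in M1, at 61.5 ± 7.67 CPM, against 90.9 ± 2.58 CPM in Ctrl (log2 -0.56, adjusted p = 1.19e-05, edgeR). It was also lower in M1 than in M2, which stood at 78.3 ± 2.85 CPM (log2 -0.35, adjusted p = 0.00356, edgeR). FNIP2, a partner of folliculin that bears on TFEB and TFE3 retention, was higher in M1 than in M0, at 23.8 ± 0.628 CPM in M1, against 14.1 ± 1.23 CPM in M0, and lower in M0 than in Ctrl, which stood at 23.7 ± 0.934 CPM (adjusted p = 1.86e-06 and 8.16e-07, edgeR).

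Of 5 cathepsin inhibitor genes 3 were measured. Against Ctrl 2 were higher and 0 lower in M1, 2 and 0 in M2, and 2 and 1 in M0. That was 66.7%, 66.7% and 100% called, beside 70.2%, 66.5% and 61.7% of all genes. Among the conditioned media CSTA alone was called, higher in all 3 comparisons. This was 33.3% of the list in each, beside 52.2% of all genes in M1 against M0, 25.2% in M2 against M0 and 32.5% in M1 against M2. Its call in M2 against M0 ended without M0 replicate 1, M0 replicate 3, M2 replicate 2 or M2 replicate 3, and that in M1 against M2 without M1 replicate 2, M1 replicate 3, M2 replicate 1 or M2 replicate 2. CSTA, cystatin A, stood at 10.2 ± 1.60 CPM in M1, 7.001 ± 0.882 in M2 and 4.58 ± 1.36 in M0, against 0.213 ± 0.0422 in Ctrl. At that Ctrl level CSTA lay under the filter on low counts and passed it only through the conditioned media. Its size against Ctrl rests on few Ctrl reads, its p-values there are not free of that selection, and the counts against Ctrl above include it. The log2 fold change of CSTA against Ctrl was 5.52 in M1 and 4.36 in M0 (adjusted p = 1.1e-10 and 7.82e-09, edgeR), and 1.16 in M1 against M0 (adjusted p = 0.000104). CST3, cystatin C, was higher than in Ctrl by 0.35 in M1, 0.51 in M2 and 0.53 in M0 on the log2 scale, and its M1 call ended without Ctrl replicate 1 or M1 replicate 3. CSTB was lower in M0 than in Ctrl (log2 -0.23, adjusted p = 0.0497), a call kept only without Ctrl replicate 1, M0 replicate 2 or M2 replicate 1.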
